A study of Mus musculus with 7 samples.

Results

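Genes of the microtubule motors, the kinesins and the dyneins with the dynactin complex, were examined in single germinal vesicle (GV) oocytes, fully grown oocytes in which meiosis has not resumed. A transcript of the deposited table was a member when its named gene lies on its own strand and the symbol begins with Kif and a number or the letter c, or with Klc and a number, Dync, Dynl or Dctn. This rule found 59 transcripts of 56 genes among 33437 transcripts, which carry 15476 gene names on their own strand, and of several transcripts for a gene the one with the highest mean level was kept. The symbols also took in Kif1bp, a protein that binds kinesins, the opposite-strand transcript Kif16bos and the pseudogenes Kif22-ps, Kif4-ps and Kifc5c-ps, none of which is a motor. All oocytes came from 21-day-old C57BL6 females (C57BL/6OlaHsd in the methods of the study) with Setd1b floxed on both alleles. Setd1b encodes a methyltransferase for lysine 4 of histone H3. In 4 libraries the female was Gdf9-Cre positive (Setd1b cKO), and in 3 libraries the label gives her as Gdf9-Cre negative (Setd1b WT). Gdf9-Cre recombines from early follicle growth onwards, so the gene is intact in the youngest oocytes, and the methods of the study also count females with 1 recombined allele and Cre as WT. Each library was made from 1 oocyte, and which of them came from the same female is not given in the labels, so the errors below measure the spread between oocytes.

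Kinesins are motors that walk along microtubules, most of them towards the growing plus end, while cytoplasmic dynein walks to the minus end and needs dynactin and an adaptor to carry cargo over long distances. In a growing oocyte these motors move vesicles, organelles and RNA. When meiosis resumes, several of them build the spindle, which in mouse oocytes forms without centrioles, and others act at the midzone when the polar body is cut off. Cargo kinesins work as dimers with light chains or other partners, mitotic kinesins slide, bundle or shorten microtubules, and the dynein chains are divided into heavy chains, which are the motor, and intermediate, light intermediate and light chains, which join it to cargo.

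The RefSeq promoters (build GRCm38.p6) of a few members are shown because these genes recur below: Kif23, Kif22 and Kif11 were lowest in the same oocytes, and Kif5c was a member whose genotypes did not overlap. Each runs from 250 bases before the RefSeq start to 30 bases after it, 5′ to 3′ on the gene's strand. Capitals mark matches on either strand to CCAAT, the sequence bound by NF-Y, and to TTTGAA, the core of the cell cycle homology region found in promoters of genes active at division. The letters of these motifs do not overlap each other. The deposited transcript began 109 bases from this start for Kif23, 65 bases for Kif22, 24 bases for Kif5c and 690 bases for Kif11.
Kif23, chr9:61946770-61947049, minus strand: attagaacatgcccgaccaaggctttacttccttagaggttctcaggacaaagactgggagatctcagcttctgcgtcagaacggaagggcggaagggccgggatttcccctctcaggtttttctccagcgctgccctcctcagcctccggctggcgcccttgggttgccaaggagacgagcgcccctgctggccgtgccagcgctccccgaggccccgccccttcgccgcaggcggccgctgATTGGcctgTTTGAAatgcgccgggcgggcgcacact
Kif22, chr7:127042391-127042670, minus strand: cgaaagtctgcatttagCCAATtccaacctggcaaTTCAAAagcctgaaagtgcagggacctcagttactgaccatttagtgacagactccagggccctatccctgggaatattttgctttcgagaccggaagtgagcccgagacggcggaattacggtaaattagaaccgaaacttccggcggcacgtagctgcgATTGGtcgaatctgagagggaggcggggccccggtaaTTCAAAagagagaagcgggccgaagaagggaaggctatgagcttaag
Kif11, chr19:37376132-37376411, plus strand: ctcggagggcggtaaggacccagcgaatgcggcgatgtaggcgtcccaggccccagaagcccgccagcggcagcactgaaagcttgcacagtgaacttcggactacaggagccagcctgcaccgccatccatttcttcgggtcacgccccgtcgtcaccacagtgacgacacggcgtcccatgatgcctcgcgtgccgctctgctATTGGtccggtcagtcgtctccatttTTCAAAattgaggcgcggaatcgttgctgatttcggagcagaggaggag
Kif5c, chr2:49619036-49619315, plus strand: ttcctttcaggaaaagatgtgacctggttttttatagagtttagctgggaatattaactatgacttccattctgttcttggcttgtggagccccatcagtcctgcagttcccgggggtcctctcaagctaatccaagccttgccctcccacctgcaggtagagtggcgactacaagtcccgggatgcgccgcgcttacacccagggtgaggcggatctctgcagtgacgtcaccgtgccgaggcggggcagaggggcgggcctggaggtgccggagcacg

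Of the members, 38 had a RefSeq promoter in the table used, and in 29 of them the deposited transcript began within 1 kb of the RefSeq start. In the full windows, from 250 bases before to 50 after the start, CCAAT was found in 18 of the 38 members against 37.4% of all 32851 RefSeq promoters, and TTTGAA in 11 of the 38 against 17.9%. The median number of CpG in the window was 21.5 in the members and 7 in all promoters, which include genes silent in oocytes. These are matches of letters and say nothing of whether a factor binds.

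The coding sequence of a dynein light chain is shown because 3 members hold the same one. Dynlt1a, Dynlt1c and Dynlt1f lie within the same stretch of chromosome 17, and their annotated coding sequences (GENCODE release M21, 342 bases) differ at 0 positions. All 268 windows of 75 bases, the length of a read, occur in each of the others, so reads within it cannot be told apart between these genes. Its first 150 bases are printed in lower case, as no base differs.
Dynlt1a, Dynlt1c and Dynlt1f: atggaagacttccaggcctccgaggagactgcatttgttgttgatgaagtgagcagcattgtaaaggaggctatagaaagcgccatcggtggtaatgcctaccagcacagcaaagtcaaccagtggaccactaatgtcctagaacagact

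Levels are in RPM, a read number divided by library depth, on a scale where 1 read was worth 0.0771 to 0.117 RPM. The libraries held from 8582493 to 12972364 mapped reads, and a transcript with 0 reads allows up to 3 reads, or 0.231 to 0.350 RPM (counting error only). The share of mapped reads outside the transcripts, which enters this scaling, was 13.2% to 16.4% in Setd1b cKO and 9.57% to 9.90% in WT libraries, and the median log2 fold change of all transcripts tested was 0.12. Setd1b cKO replicate 4 and WT replicate 3, the shallowest library of each genotype, stood apart from the others of their genotype in the same direction. For members and motor genes found by position, each log2 fold change that moved by over 0.2 without the pair of them is also given without them. Setd1b itself, whose transcript carries the name Gm26745 in the table and was found by position, was at 8.31, 16.7, 12.8 and 2.68 RPM in the cKO and 17.7, 16.3 and 8.61 RPM in the WT. These groups overlapped, and the value covers the whole transcript with sequence outside the floxed segment, so it gives no check of the genotypes. Oocyte markers (13 of 14 in the table) were all detected, at 21450 to 22580 RPM in sum in the cKO and 25850 to 27190 RPM in the WT. Granulosa and cumulus markers (16 of 18) summed to 153 to 189 RPM in the cKO and 197 to 228 RPM in the WT. Esr2, the highest marker (75.97 to 95.78 and 134 to 158 RPM), alone made the cKO sum the lower one, and Krt18 was at 0. Nr5a2 went the other way, at 32.5 to 50.8 RPM in the cKO and 27.4 to 28.3 RPM in the WT. Markers of theca and stroma (6 of 7) summed to 6.24 to 7.99 against 2.62 to 3.74 RPM. Markers of blood and immune cells (4 of 5) summed to 4.62 to 13.1 RPM in the cKO and 2.16 to 3.74 RPM in the WT, with Hba-a1, Hbb-bs and Lyz2 at 0. The part of these other cells in the values below was not tested.

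Whether the motor genes changed after loss of SETD1B was asked first. No motor gene of the rule passed the threshold in either direction. Of the 56 members, 47 reached 1 RPM in at least 3 libraries and were tested, and limma on log2(RPM + 1) called 0 of them higher and 0 lower. In 4 tested members, Dynll1, Dynll2, Kif28 and Kif22-ps, the deposited span shares under 0.5 of the union with the span of the annotated gene. They stay in the counts below, beside 43 that share at least 0.5. A call needed more than 2-fold and an adjusted p (Benjamini-Hochberg) under 0.05. Of all 18179 transcripts tested, 5.71% were called, 3.76% higher and 1.95% lower (683 and 355 transcripts, against 458 and 531 with each library centred on its median gene). At an unadjusted p under 0.05 there were 3 members, Kif5b, Dctn1 and Dynll1, against 21.7% of all transcripts. With voom, which weights the reads recovered from the values by their precision, 0 members were called with library totals as sizes (4.24% of all transcripts, 3 members at an unadjusted p under 0.05) and 0 with sizes from the median of ratios (4.08%, 4 members). Without cKO replicate 4 and WT replicate 3, limma called 0 of 45 members, against 8.87% of all transcripts in the same fit, and the log2 fold change moved by over 0.2 in 8 of the 45, and with the replicate number as a block 0 of 47, against 7.72%. There were also 0 members called with libraries centred on the median gene (5.44% of all transcripts), with quantile normalisation (4.79%), with no intensity trend (6.0%), without cKO replicate 4 (7.29%) and without WT replicate 3 (4.98%).

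Most members stood close to no change. On the log2(RPM + 1) scale the largest difference was 0.84, for Kif21b. For low members such as this one the size depended on the scale: Kif21b was at 0.34 with a pseudocount of 5 RPM, 1.39 with 0.1 RPM, 1.53 on log2 RPM as deposited and 1.52 with voom and library totals. In that voom fit Dynlrb2, a dynein light chain with a mean of 0.738 RPM, was larger, at 1.76 (limma adjusted p = 0.316, against 0.49 and 0.423 on log2(RPM + 1)). The median log2 fold change of the tested members was 0.03, with 25 above 0 and 22 below, where 60.3% of all transcripts were above 0. Relative to the median of all transcripts, 18 members were above it and 29 below, and with each library centred on its median gene 17 were above 0 and 30 below. In size, the median change of the members was 0.19 on the log2 scale against 0.35 for all transcripts, while their median SD within a genotype was 0.44 against 0.41. The 95% interval of the change lay inside 2-fold in both directions for 29 of the 47 members (61.7%), against 42.3% of all transcripts. For the others a change of 2-fold was not resolved with these oocytes. The interval is on log2(RPM + 1), which understates changes of low transcripts, so for these it does not exclude a 2-fold change in RPM. Klc2, Kif13a and Dync1li2 counted as inside 2-fold with SEs of 0.37, 0.28 and 0.40. With voom and library totals their SEs were 0.62, 0.50 and 0.48. Oocytes of the genotypes did not overlap in 3 members, all higher in the cKO (Kif5b, Kif5c and Dctn1), or 6.38% of the members, against 20.3% of all transcripts (13.2% higher and 7.14% lower).

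**Figure D1:**
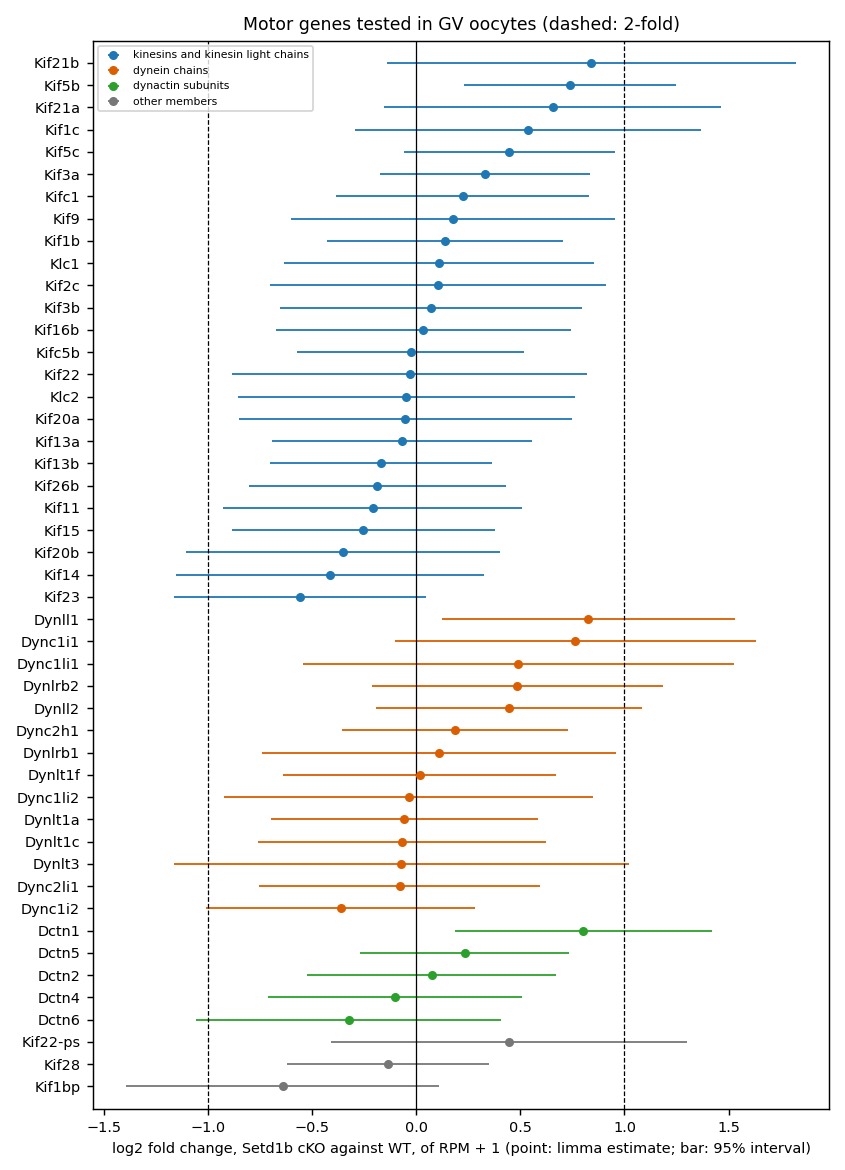
The 47 tested members by class (rows), with the log2 fold change of RPM + 1 between 4 Setd1b cKO and 3 WT libraries as limma estimated it (points) and its 95% interval (bars); the dashed lines are 2-fold. All estimates lie between -0.64 and 0.84, and none reaches a dashed line.

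Among the cargo kinesins, kinesin-1 held the member nearest to the threshold. Kif5b (chromosome 18, 6201002 to 6241777), the most widely used heavy chain of conventional kinesin, was at 12.6, 15.4 and 14.7 RPM in the WT and at 19.7, 23.7, 24.9 and 30.1 RPM in the cKO. Every cKO oocyte was above every WT oocyte, and the log2 fold change was 0.74 (SE 0.23, adjusted p = 0.0883 in limma, from 0.0761 to 0.262 over 19 alternatives). Kif5c (chromosome 2, 49619262 to 49774778), a heavy chain best known from neurons, was at 19.2, 19.6 and 16.8 RPM in the WT and at 28.2, 21.2, 22.6 and 31.7 RPM in the cKO. These groups did not overlap either, with a log2 fold change of 0.45 (SE 0.23, adjusted p = 0.294 in limma). The light chains Klc1 and Klc2, which bind cargo, were low, with means of 4.15 and 1.68 RPM, and had log2 fold changes of 0.11 (-0.10 for Klc1 without cKO replicate 4 and WT replicate 3) and -0.05.

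Kinesin-2 drives transport in cilia, as a heterodimer of Kif3a and Kif3b. Kif3a (chromosome 11, 53567343 to 53604242) was at 107, 119 and 80.5 RPM in the WT and at 149, 147, 115 and 104 RPM in the cKO. The groups overlapped, and the log2 fold change was 0.33 (SE 0.23, adjusted p = 0.456 in limma). Its partner Kif3b was far lower, at 4.87 RPM on average, and per kb of exon Kif3a stood at 32.7 and Kif3b at 0.865 RPM. Its log2 fold change was 0.07.

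Kinesin-3 motors carry membranes and mitochondria, with Kif14 as a family member that works in cytokinesis. Kif1b (chromosome 4, 149176318 to 149307772), a carrier of mitochondria and vesicles, was at 40.1, 35.0 and 27.5 RPM in the WT and at 37.4, 51.5, 36.9 and 27.3 RPM in the cKO. The lowest values were alike and cKO replicate 2 was above every other oocyte, with a log2 fold change of 0.14 (SE 0.26, adjusted p = 0.815 in limma). Kif14 (chromosome 1, 136466286 to 136531511) was at 116, 132 and 67.8 RPM in the WT and at 62.6, 107, 103 and 47.8 RPM in the cKO. Here WT replicate 3 lay within the range of the cKO, and the log2 fold change was -0.42 (SE 0.33, adjusted p = 0.532 in limma). The other kinesin-3 members tested were Kif13a, Kif13b, Kif16b and Kif1c, with log2 fold changes from -0.17 to 0.54. Kif1c, a carrier of vesicles, was at the filter, with 0.648, 0.617 and 1.4 RPM in the WT and 1.49, 0.577, 1.92 and 3.61 RPM in the cKO.

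The kinesin-4 members Kif21a and Kif21b, which dampen microtubule growth, had a median of 0.75 on the log2 scale over the 2 genes. Kif21a had a log2 fold change of 0.65, or 0.28 without cKO replicate 4 and WT replicate 3. With Kif4 and Kif27, kinesin-4 genes that the table lists under other names, the median was 0.42 over 4 genes. Kif21b (chromosome 1, 136131389 to 136178010) was at 4.86, 0.308 and 1.5 RPM in the WT and at 3.37, 4.78, 3.31 and 3.85 RPM in the cKO. The difference came from low values in WT replicates 2 and 3, WT replicate 1 was above every cKO oocyte, and the log2 fold change of 0.84 had an SE of 0.45 (limma adjusted p = 0.309). Without WT replicate 2 it was 0.32, and without WT replicate 1 it was 1.41.

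Kinesins of the spindle and the midzone included Kif22 and Kif23, which stood at 40.6 and 38.4 RPM per kb of exon. Kif23 (chromosome 9, 61917275 to 61946908), a subunit of centralspindlin that bundles microtubules of the midzone, was at 428, 438.5 and 254.5 RPM in the WT and at 295, 300.1, 234 and 176 RPM in the cKO. WT replicates 1 and 2 were above every cKO oocyte and WT replicate 3 was not, and the log2 fold change was -0.56 (SE 0.27, adjusted p = 0.267 in limma). Without cKO replicate 4 and WT replicate 3 it was -0.66 with a limma adjusted p of 0.0339, still short of 2-fold. Of the other kinesin-6 genes, Kif20a, which brings the chromosomal passenger complex to the midzone, had a log2 fold change of -0.05 (-0.31 without these libraries) and Kif20b, a motor of late cytokinesis, of -0.35.

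Kif11 (chromosome 19, 37375692 to 37421859), the kinesin-5 that pushes spindle poles apart, was at 26.5, 30.5 and 15.6 RPM in the WT and at 21.0, 28.1, 22.5 and 12.0 RPM in the cKO. The groups overlapped over most of their range, with a log2 fold change of -0.21 (SE 0.33, adjusted p = 0.774 in limma). Kif15, a kinesin-12 that can help Kif11 at the spindle, was low, from 4.58 to 4.86 RPM in the WT and from 2.72 to 5.57 RPM in the cKO, with a log2 fold change of -0.25. Kif22 (chromosome 7, 127027732 to 127042485), which binds chromosome arms, was at 262, 201 and 127 RPM in the WT and at 283, 251, 177 and 91.5 RPM in the cKO. The WT oocytes lay within the range of the cKO oocytes, and the log2 fold change was -0.03 (SE 0.39, adjusted p = 0.977 in limma). Kif2c (chromosome 4, 117159639 to 117182645), which shortens microtubules at kinetochores, was at 148, 124 and 61.0 RPM in the WT and at 131, 170, 105 and 66.5 RPM in the cKO. The ranges overlapped over most of their length, with a log2 fold change of 0.10 (SE 0.37, adjusted p = 0.911 in limma).

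The minus-end kinesin-14 motors, which focus spindle poles, stood near no change: Kifc1 had a log2 fold change of 0.22 (-0.077 without cKO replicate 4 and WT replicate 3) and its close relative Kifc5b of -0.03. Kifc1 and Kifc5b share 38.4% of the 75-base windows of the Kifc1 coding sequence, and reads within these windows cannot be told apart between them. Kif9 (kinesin-9, a motor of cilia and flagella) had a log2 fold change of 0.18 and Kif26b (kinesin-11, which lacks the motor's enzyme activity) of -0.19. The lowest log2 fold change of the tested members was that of Kif1bp, the kinesin-binding protein, which is named here after its values were seen. Kif1bp was at 17.0, 19.6 and 16.6 RPM in the WT and at 12.1, 12.5, 17.1 and 5.36 RPM in the cKO. The groups overlapped through cKO replicate 3, and the log2 fold change was -0.64 (SE 0.34, adjusted p = 0.308 in limma), or -0.38 without cKO replicate 4 and WT replicate 3.

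**Figure D2:**
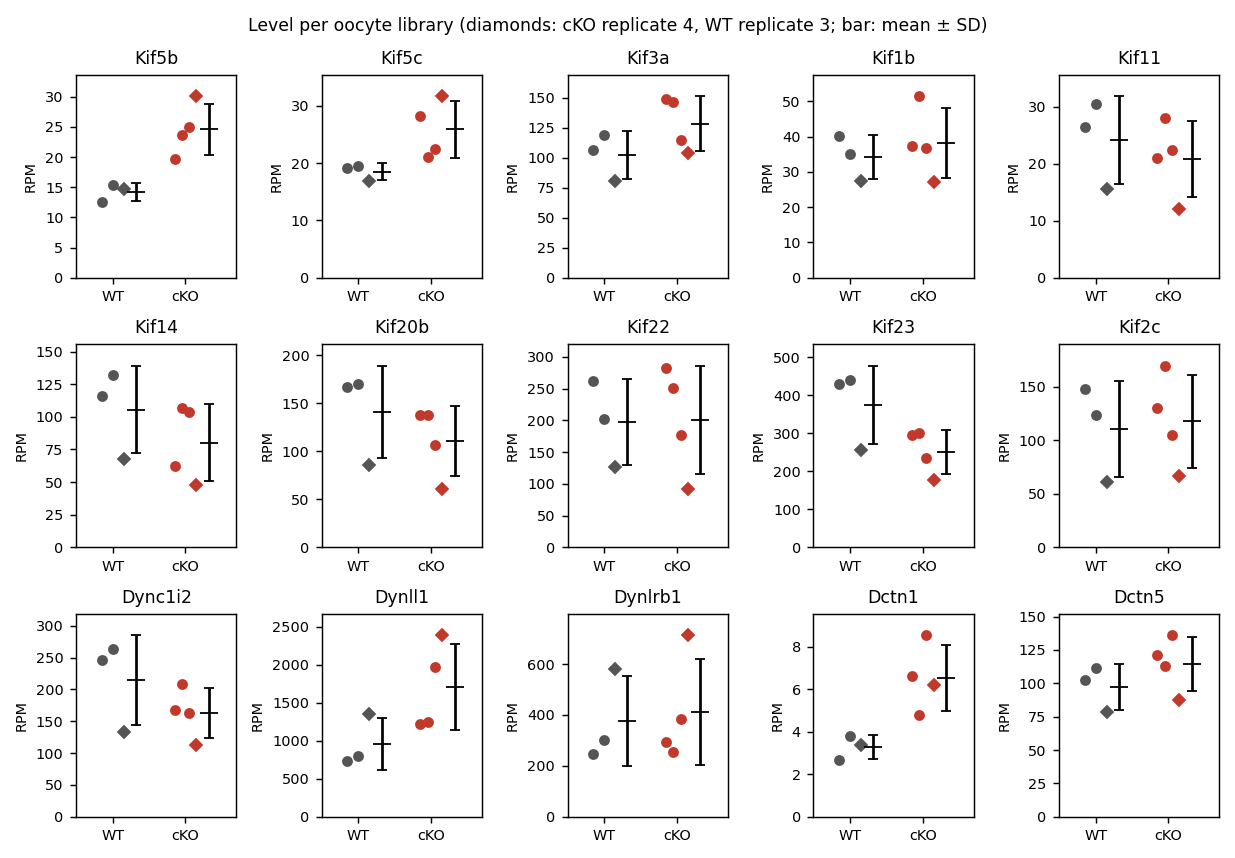
Level in RPM (vertical axes from 0) of 15 members in each oocyte library, WT in grey and Setd1b cKO in red, with the mean and SD of each genotype as a bar (n = 3 and n = 4); diamonds are cKO replicate 4 and WT replicate 3. The genotypes do not overlap in Kif5b, Kif5c and Dctn1, and in Kif11, Kif14, Kif22, Kif23 and Kif2c the diamonds are the lowest value of each genotype.

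Cytoplasmic dynein was represented by 14 tested members, 8 of them light chains. Dync1i2 (chromosome 2, 71211696 to 71263303), the intermediate chain through which dynein binds dynactin, was at 246, 263 and 134 RPM in the WT and at 168, 208, 163 and 113 RPM in the cKO. WT replicate 3 lay among the cKO oocytes, and the log2 fold change was -0.36 (SE 0.29, adjusted p = 0.528 in limma). The other intermediate chain, Dync1i1 (chromosome 6, 5706372 to 6028039), was at 11.1, 10.2 and 2.99 RPM in the WT and at 11.4, 14, 17.1 and 9.90 RPM in the cKO. WT replicate 3 was far below the other oocytes, and the log2 fold change was 0.76 (SE 0.39, adjusted p = 0.292 in limma). It was 0.25 without WT replicate 3, 0.36 without cKO replicate 4 and WT replicate 3, and 1.05 without WT replicate 1. The light intermediate chains, which hold the adaptors, had log2 fold changes of 0.49 (Dync1li1, mean 6.10 RPM) and -0.04 (Dync1li2, mean 4.81 RPM). That of Dync1li1 ran from 0.12 to 0.85 over 19 alternatives. Dync1li2 was at 1.51 RPM in cKO replicate 4 and from 3.81 to 7.23 RPM in the other oocytes, and its log2 fold change was 0.47 without cKO replicate 4 and WT replicate 3. Dync2h1, the heavy chain of the dynein of cilia, had a log2 fold change of 0.18 at a mean of 16.5 RPM (0.42 without cKO replicate 4 and WT replicate 3), and a transcript on the other strand, which overlaps its 5′ end, was at 135 RPM. The libraries were made from amplified cDNA with a DNA library kit, and no source names a step that keeps the strand. Nor does a source say whether counting was by strand. The reads of overlapping transcripts on opposite strands may therefore not be kept apart, and 19 members overlap another transcript of the table. Among them, Kif15 (mean 4.23 RPM) overlaps a transcript at 212 RPM on the other strand, and Klc1 (4.15 RPM) one at 17.7 RPM.

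The light chains Dynlrb1 and Dynll1 had the highest levels of all members per kb of exon, at 393 and 357 RPM. Dynll1 (chromosome 5, 115297110 to 115313837), a small protein that pairs dynein with many partners, was at 731, 799 and 1346 RPM in the WT and at 1224, 1252, 1968 and 2387 RPM in the cKO. Of the WT oocytes, replicate 3 was above the lower cKO oocytes, so the groups overlapped, and the log2 fold change was 0.83 (SE 0.32, adjusted p = 0.158 in limma). Without cKO replicate 4 and WT replicate 3 it was 0.92 with a limma adjusted p of 0.0146, short of 2-fold. The deposited transcript reaches well beyond the annotated gene: its span shares 0.233 of the union with that of the GENCODE gene and it begins 12850 bases from the RefSeq start. Dynlrb1, another light chain, was at 247, 302 and 579 RPM in the WT and at 293, 256, 384 and 713 RPM in the cKO. The highest value of each genotype was in WT replicate 3 and cKO replicate 4, and the log2 fold change was 0.11 (SE 0.39, adjusted p = 0.914 in limma). Dynlt1a, Dynlt1c and Dynlt1f, alike in coding sequence, had log2 fold changes of -0.06, -0.07 and 0.02, at means of 108, 96.9 and 104 RPM. Their merged exons hold 4267, 3777 and 3627 bases, and sequence outside the 342 coding bases was not compared.

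Dynactin, the activator of dynein, was represented by 5 members, all tested. Dctn1 (chromosome 6, 83165920 to 83200117), the large subunit that holds both dynein and the microtubule, was at 2.67, 3.78 and 3.37 RPM in the WT and at 6.63, 4.78, 8.53 and 6.18 RPM in the cKO. Every cKO oocyte was above every WT oocyte at this low level, and the log2 fold change was 0.80 (SE 0.28, adjusted p = 0.121 in limma, from 0.0938 to 0.322 over 19 alternatives). Dctn5 (chromosome 7, 122132998 to 122149044), a subunit of the pointed end, was at 102, 111 and 78.2 RPM in the WT and at 122, 113, 136 and 87.6 RPM in the cKO. Its groups overlapped, with a log2 fold change of 0.23 (SE 0.23, adjusted p = 0.620 in limma). Dctn2, the subunit called dynamitin, had a log2 fold change of 0.07, Dctn4 of -0.10 and Dctn6 of -0.33.

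Several members were low or high in the same oocytes, whatever the genotype. Setd1b cKO replicate 4 and WT replicate 3 were both the lowest library of their genotype in 22 of the 47 members (46.8%), against 25.2% of all transcripts tested. They were both the highest in 5 members (10.6%), against 22.2% of all transcripts. The members lowest in both included Kif20a, Kif20b and Kif23 (every kinesin-6 gene), Kif11, Kif14, Kif22, Kif2c, Kif3a, Kif3b, Dync1i1, Dync1i2, Dync1li1 and Dctn5. Those highest in both were Dynll1, Dynll2, Dynlrb1, Kif26b and Kif1c, so that 3 of the 8 light chains were in this class and 1, Dynlt3, was among the lowest. As a difference from the mean of the other oocytes of the genotype, in log2(RPM + 1), Kif22 was at -1.34 in cKO replicate 4 and at -0.85 in WT replicate 3, and Kif23 at -0.64 and -0.77. Dynll1 was at 0.72 and 0.82 by the same measure. Across the 47 members these differences had a Pearson correlation of 0.68 between the oocytes, beside 0.61 over all 18179 transcripts tested, with 25 members below 0 in both and 12 above 0 in both. This describes 2 libraries over genes that share their depth and their preparation. The members lowest in both had a median exon length of 4.63 kb and those highest in both of 3.89 kb, and the Spearman correlation of the mean difference with exon length was -0.06 over the members and -0.21 over 11039 named transcripts. The part of depth or preparation in this pattern was not tested.

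**Figure D3:**
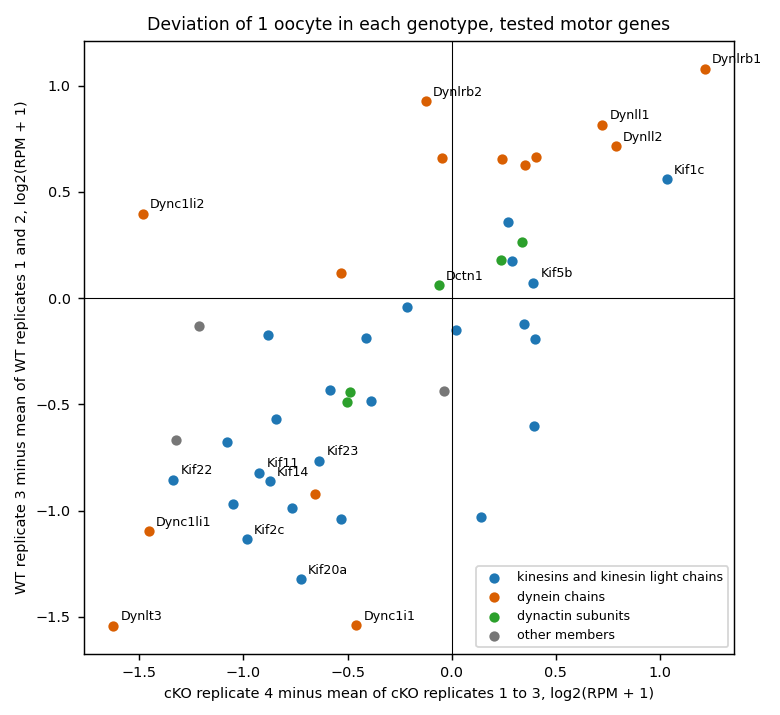
Each point is a tested member: the log2(RPM + 1) level of cKO replicate 4 minus the mean of cKO replicates 1 to 3 (horizontal) and of WT replicate 3 minus the mean of WT replicates 1 and 2 (vertical), coloured by class. Of the 47 points 25 lie below 0 on both axes, among them Kif11, Kif14, Kif22, Kif23 and Kif2c, and 12 above 0 on both, among them Dynll1 and Dynlrb1.

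The deposited table gives 12 further motor transcripts the name of another gene, and these were found by the overlap of their span with the GENCODE gene (at least 0.5 of the union), a step chosen after the table had been seen. Of them 11 were tested, 5 above 0 and 6 below (60.3% of all transcripts were above 0), and 0 were called, against 5.71% of all transcripts. Genotypes did not overlap in 2 of the 11, Kif17 and Kif24, against 20.3% of all transcripts. Kif17 (chromosome 4, 138250435 to 138301967), a kinesin-2 of cilia and dendrites, was at 656, 537 and 444 RPM in the WT and at 354, 303, 236 and 302 RPM in the cKO. Every cKO oocyte was below every WT oocyte, and the log2 fold change was -0.86 (SE 0.23, 95% interval -1.37 to -0.36, limma adjusted p = 0.0498), past the limit on p and short of 2-fold. It passed both limits in 3 of 19 alternatives, with log2 fold changes of -1.02 after centring libraries on the median gene (limma adjusted p = 0.0352), -1.0 without WT replicate 3 (0.0471) and -1.01 without cKO replicate 4 and WT replicate 3 (0.00554). Over all 19 it ran from -1.02 to -0.72, and without WT replicate 1 the limma adjusted p was 0.20. This transcript carries the name Sh2d5 in the table, on which the rule therefore did not find it.

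None of the spindle motors found in this way passed the threshold. Kif4, which binds chromosome arms, was at 256, 259 and 165 RPM in the WT and from 228 to 280.3 RPM in the cKO, with a log2 fold change of 0.18. Kif2a, which shortens microtubules at spindle poles, was at 96.0, 142 and 39.7 RPM in the WT and at 61.9, 133, 134 and 37.1 RPM in the cKO, with a log2 fold change of -0.03 (95% interval -1.15 to 1.09). Kif18a, which limits the length of kinetochore microtubules, had a log2 fold change of -0.31, and Kif18b, its relative, of 0.76 at a mean of 4.36 RPM (SE 0.34, adjusted p = 0.223 in limma). In Kif24, which acts at centrioles, every cKO oocyte was below every WT oocyte, at 16.4, 17.1, 13.7 and 11.7 RPM against 20.6, 18.7 and 19.1 RPM. Its log2 fold change was -0.39 (SE 0.23, adjusted p = 0.365 in limma). The heavy chain that moves dynein-1, Dync1h1, was at 3.97, 4.01 and 4.58 RPM in the WT and at 5.74, 6.67, 6.27 and 3.96 RPM in the cKO, a log2 fold change of 0.34 (SE 0.27, adjusted p = 0.522 in limma). The groups overlapped through cKO replicate 4. The others tested were Dctn3, Kifc3, Kif27 and Klc4, with log2 fold changes of 0.22, 0.13, -0.25 and -0.74 (limma adjusted p = 0.247 for Klc4). Without cKO replicate 4 and WT replicate 3, Kif27 was at 0.080.

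**Figure D4:**
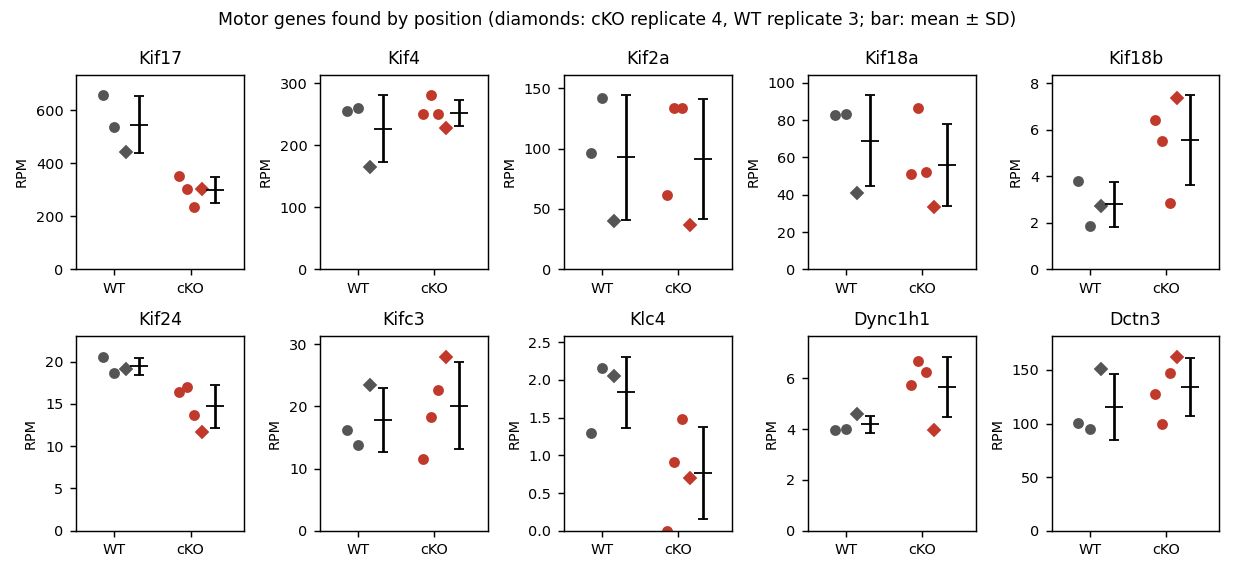
Level in RPM (vertical axes from 0) of 10 motor genes found by position, in each oocyte library, WT in grey and Setd1b cKO in red, with mean and SD (n = 3 and n = 4); diamonds are cKO replicate 4 and WT replicate 3. In Kif17 the cKO oocytes lie between 236 and 354 RPM and the WT oocytes between 444 and 656 RPM, and in Kif2a and Kif18a the diamonds are the lowest of each genotype.

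Between genes, levels were compared as RPM per kb of merged exons. The order was led by the light chains Dynlrb1 (393) and Dynll1 (357), followed by Dctn3 (121), Kif17 (88.3), Kif4 (43.7), Kif22 (40.6), Dctn5 (40.4), Kif23 (38.4) and Kif3a (32.7). These means are over all 7 libraries, and the order was not the same in each genotype. Kif17 stood at 119 in the WT, beside 111 for Dctn3, and at 65.2 in the cKO, beside 129. Kif23 stood at 47.3 in the WT, above Kif4 (41.1), Kif22 (40.2) and Dctn5 (36.7), and at 31.8 in the cKO, below Kif3a (35.9). Dynll1 (439) was above Dynlrb1 (407.5) in the cKO and below it in the WT (246.5 and 373). The deposited transcript of Dynll1 shares 0.233 of the union of spans with the annotated gene, so its level per kb of annotated exon is uncertain. Neighbours from Kif4 to Kif3a differ by less than the spread of Kif22 between oocytes. The heavy chain Dync1h1, annotated with 15658 bases of exons, stood at 0.321 RPM per kb, and Dync1i2, its intermediate chain, at 22.4. A per-length level assumes that reads cover a transcript evenly, which was not tested for these amplified single-oocyte libraries.

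The 9 members below the filter were near or at the limit of detection. Kif1a, a carrier of vesicles in neurons, had 0 reads in all 3 WT oocytes and 9, 2, 13 and 16 reads in the cKO. The cKO mean of 1.01 RPM was 4.03-fold the mean of the 3-read floors of the WT libraries (0.252 RPM). This ratio takes no account of error in the cKO, where replicate 2, at 0.165 RPM, was below that floor. With no filter on low values Kif1a had a log2 fold change of 0.94 and a limma adjusted p of 0.116. Kifc5c-ps had 6, 15 and 6 reads in the WT and 1, 1, 0 and 0 in the cKO, with a limma adjusted p of 0.0497 and a log2 fold change of -0.71 in the same fit. Kif19a and Kif3c had 0 reads in every library over the short stretches that carry their names, and Kif16bos, Kif4-ps, Kif26a, Kifc2 and Kif6 had from 1 to 37 reads in all libraries together. For Kif28 the row overlaps the annotated gene in 0.00428 of the union, so that its 28.7 RPM are not those of Kif28.

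Other genes of the same machinery, in 6 lists of 114 genes, gave no call either. Of these 85 were in the table, 74 were tested and 0 were called, against 5.71% of all transcripts, with 12 at an unadjusted p under 0.05, where 21.7% of all transcripts were. Genotypes did not overlap in 11 of the 74 (14.9%), against 20.3% of all transcripts. Regulators and adaptors of dynein (12 tested) had a median log2 fold change of -0.04, dynactin subunits outside the rule (7 tested) of 0.08, partners of kinesins and other motors (9 tested) of 0.14 and tubulins (10 tested) of 0.09. Spindle microtubule regulators (25 tested) had a median of 0.00058 and axonemal dyneins (11 tested), which beat cilia, of -0.39, beside 0.12 for all transcripts. The largest change in the lists was that of Actr1b, an actin-related subunit of the dynactin filament, at 2.51, 1.93 and 0.0936 RPM in the WT and at 2.87, 5.52, 5.83 and 3.38 RPM in the cKO. Its genotypes did not overlap, and the log2 fold change was 1.23 (SE 0.42, adjusted p = 0.119 in limma). Pafah1b1, the Lis1 protein that activates dynein, had a log2 fold change of -0.24 and Cenpe, the kinesin that aligns chromosomes, of -0.28. Called in some alternatives were Tacc1, Haus7 and Dnal1, which like Actr1b are named here after their values were seen. Tacc1, a spindle protein, was at 54.3, 34.0 and 31.1 RPM in the WT and at 16.6, 23.8, 20.4 and 11.3 RPM in the cKO, without overlap. Its log2 fold change was -1.10 (SE 0.30, adjusted p = 0.0563 in limma). Haus7, a subunit of augmin, which seeds microtubules on existing ones, was at 35.4, 27.7 and 101 RPM in the WT and at 113, 89.4, 88.9 and 137 RPM in the cKO. WT replicate 3 was the exception to low WT values, and the log2 fold change was 1.17 (SE 0.39, adjusted p = 0.105 in limma), or 1.72 without it (0.00963). Without cKO replicate 4 and WT replicate 3 the log2 fold change of Haus7 was 1.595 (limma adjusted p = 0.000418). Dnal1, a light chain of axonemal dynein, rested on low values, from 0.405 to 0.842 RPM in the WT and from 1.81 to 3.57 RPM in the cKO, with a log2 fold change of 1.03 (SE 0.29, adjusted p = 0.0648 in limma).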

How the data were processed

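Single GV oocytes were processed by the authors with the SMARTer Ultra Low kit and NEBNext libraries, sequenced as 75-base single reads, trimmed, mapped with Hisat to GRCm38 with known splice sites and filtered on mapping quality, which affects reads shared by gene copies. SeqMonk then counted reads over merged oocyte transcripts. The submitters' processing notes name bcl2fastq 1.8.4 and featureCounts 1.4.4. The deposited values are log2 RPM, with 0.9 read in place of 0 reads. Whole reads (within 0.05 read) were recovered for 100% of the values above that floor. Depth was 8582493 to 12972364 mapped reads, and no libraries were duplicates (chi-square per degree of freedom at least 15.6 within a genotype).

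RPM were set to 0 at the floor, transformed to log2(RPM + 1), filtered (at least 1 RPM in at least 3 libraries) and fitted with limma 3.58.1 (lmFit, eBayes with trend; R 4.3.3), 4 Setd1b cKO against 3 WT, without covariates, two-sided, with Benjamini-Hochberg adjustment over 18179 transcripts. Fold changes on this scale understate those of low transcripts. Genes were called at an adjusted p under 0.05 and over 2-fold. The main limma fit and the voom fits were first run on simulated reads with known changes. Alternatives were other pseudocounts, filters and scalings, no trend, a replicate block, and each library left out. Leaving out cKO replicate 4 with WT replicate 3, naming by span, and limma's voom on the recovered reads were added after seeing the data, voom in place of the planned count models, since the deposited unit is not counts. Tables and figures used Python 3.11.15, pandas 2.3.3, numpy 2.4.6 and matplotlib 3.10.9. Spans, exon lengths and coding sequences are from GENCODE release M21.

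Members, role groups, companion lists and tests were chosen with earlier results of these data known. Genes named were those past the threshold, in each role group, other than members of no family, the most abundant tested member and the one with the largest change, and a fixed list of motors known in meiosis or transport; any other gene was named after its values were seen.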

Additional observations from a re-analysis of the deposited data

How the results depend on the processing

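No member was called, higher or lower, in any of 19 alternatives, and the median log2 fold change of the tested members stayed between -0.12 (centred on the median gene) and 0.20 (without cKO replicate 4, and with the replicate block, in which that oocyte has no partner and carries no weight). At an adjusted p under 0.05 without the 2-fold limit, Dynll1 passed with a replicate block (0.65, 0.0292), Dynll1 and Kif23 without cKO replicate 4 and WT replicate 3, and Kifc5c-ps with no filter. Replicate numbers did not pair the oocytes: deviations of same-numbered libraries correlated at 0.19, 0.29 and -0.13, and the replicate block called 0 members while the calls over all transcripts went from 1038 to 1403, of which the loss of cKO replicate 4 is a part, since leaving out that oocyte alone gave 1287.

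Calls among the companion genes went from 0 to 1 with centring on the median gene, quantile normalisation and voom with median-of-ratios sizes (Tacc1), where 5.44%, 4.79% and 4.08% of all transcripts were called, to 1 with no intensity trend (Dnal1, 6.0%) and to 1 without WT replicate 3 (Haus7, 4.98%). They went to 2 without cKO replicate 4 and WT replicate 3 (Tacc1 and Haus7, 8.87%).

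Of the 47 tested members, 23 changed sign in some alternative, among them Dynlt1f (7 alternatives), Dynlrb1 (6), Kif3b and Dync1li2 (5 each), and Klc1, Klc2, Dynlt1a and Dynlt1c (4 each). For the 25 members picked by the naming rule, 29 of 472 log2 fold changes under alternatives changed sign, from values between -0.21 and 0.22. With centring on the median gene these were Kif2c (-0.051), Kif1b (-0.016) and Dctn2 (-0.083), and with quantile normalisation Kif22 (0.011) and Dctn2 (-0.12). With the replicate block they were Kif22 (0.30), Kif20a (0.13) and Kif11 (0.021). Without cKO replicate 4 and WT replicate 3 they were Kif2c (-0.028), Kif22 (0.017) and Kifc1 (-0.077), and with voom and median-of-ratios sizes Kif2c (-0.026) and Dctn2 (-0.047). With each library left out in turn, Kif2c ran from -0.27 to 0.36, Kif1b from -0.011 to 0.29, Kif22 from -0.32 to 0.30, Kif9 from -0.049 to 0.45, Dctn2 from -0.11 to 0.19, Kifc5b from -0.11 to 0.088, Kif20a from -0.49 to 0.29 and Kif11 from -0.48 to 0.021. The cause was not tested. The planned negative binomial count models were fitted at first and then dropped, since the deposited unit is not counts, and their values are not given here.

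A single read was worth 0.0771 to 0.117 RPM, so members near the filter of 1 RPM rest on few reads of each oocyte. No value of the 58 motor transcripts tested had 1 cKO library far from the rest by Dixon's rule, where chance gives about 3, and of 7 further rows tested under these gene names, on the other strand or lower, 0 were called.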
